A study of Mus musculus with 12 samples.

Results

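The muscle atrophy programme examined here comprises 10 genes, the ubiquitin ligases *Trim63*, *Fbxo32* and *Fbxo30*, the ligand *Mstn* with its antagonist *Fst* and its receptor *Acvr2b*, and the transcriptional regulators *Foxo1*, *Foxo3*, *Klf15* and *Gadd45a*. They were picked out of the table by gene symbol. All 10 were found among the 18996 genes of the count table, and all 10 passed the filter on low counts that left 14765 genes. Bulk RNA sequencing of polyadenylated RNA covered 12 BALB/c mice in 3 groups of 4. No operation mice gave paraspinal soft tissue. SHAM mice had paraspinal soft tissue removed with the laminae left in place, and Laminectomy mice also had the vertebral laminae excised. In both operated groups the sample titles call the tissue scar tissue, and only the No operation titles name paraspinal soft tissue. Mice were 5 to 7 weeks old, the study used both sexes without giving the sex of each sequenced mouse, and the tissue was taken on day 7 after surgery. The series' design text states that 3 of the 4 replicates per group were selected on RNA integrity and sequencing metrics without naming them, so all 4 were used here. The samples are mixed tissue and not isolated muscle. Those of SHAM and Laminectomy mice came from the operated site.

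In skeletal muscle, protein is marked for the proteasome by ubiquitin ligases. MuRF1, encoded by *Trim63*, targets proteins of the contractile apparatus, and atrogin-1, encoded by *Fbxo32*, is the substrate-binding part of an SCF ligase. Both are transcribed at a higher rate in many kinds of muscle wasting, and FoxO factors, which insulin and Akt signalling keep out of the nucleus, are among their known activators. Myostatin is a secreted brake on muscle growth that signals through the activin type II receptors and Smad2/3, and follistatin binds and blocks it.

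The upstream sequences of *Trim63*, *Mstn* and *Klf15*, 3 of the 4 members that fell most below, are shown because FoxO and myogenic factors are known regulators of this programme. RefSeq promoter sequences on GRCm38.p6 matched 8 of the 10 members, with *Fbxo32* and *Fst* not among them. Each line gives the 250 bases before the RefSeq start site, 5′ to 3′ on the plus strand, which is the coding strand of all 3, at chr4:134314870-134315119 for *Trim63*, chr1:53061390-53061639 for *Mstn* and chr6:90462326-90462575 for *Klf15*, whose RefSeq start site here lies inside the gene span given with its levels, downstream of the first base of that span. Capitals mark matches on either strand to the FoxO site GTAAACA, and to the E-box CANNTG, which myogenic factors bind.
Trim63: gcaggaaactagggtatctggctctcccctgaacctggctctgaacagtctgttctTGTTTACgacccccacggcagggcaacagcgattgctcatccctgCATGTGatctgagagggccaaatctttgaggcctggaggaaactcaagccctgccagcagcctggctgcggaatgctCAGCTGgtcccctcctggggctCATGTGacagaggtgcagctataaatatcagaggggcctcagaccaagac
Mstn: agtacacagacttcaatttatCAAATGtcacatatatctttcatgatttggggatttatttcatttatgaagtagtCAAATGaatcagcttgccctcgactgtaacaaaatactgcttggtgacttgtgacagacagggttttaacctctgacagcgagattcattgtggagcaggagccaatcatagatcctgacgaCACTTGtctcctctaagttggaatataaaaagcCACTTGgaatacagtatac
Klf15: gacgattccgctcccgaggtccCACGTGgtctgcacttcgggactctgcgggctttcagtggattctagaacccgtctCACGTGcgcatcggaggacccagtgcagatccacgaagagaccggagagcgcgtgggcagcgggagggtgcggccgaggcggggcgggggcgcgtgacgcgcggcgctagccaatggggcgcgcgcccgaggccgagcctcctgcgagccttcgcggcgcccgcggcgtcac
*Trim63* held 1 FoxO match, which starts 194 bases before the start site and reads on the minus strand, and 3 E-boxes. *Mstn* held 4 E-boxes and *Klf15* 2, and neither held the FoxO letters. Of 32851 mouse promoters, 3.17% held the FoxO letters and 66.2% an E-box in these 250 bases, so an E-box is found in most promoters. Of the other 5 members with a sequence, *Foxo1* and *Gadd45a* held 1 E-box each and *Acvr2b*, *Fbxo30* and *Foxo3* held neither motif. A match describes the letters only.

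Against No operation mice, 7 of the 10 genes were called in SHAM mice, with *Fst* higher and *Trim63*, *Fbxo32*, *Mstn*, *Acvr2b*, *Foxo1* and *Klf15* lower. In Laminectomy mice the same 6 genes were lower and none was higher. No gene was called between Laminectomy and SHAM mice. A gene was called at an adjusted p below 0.05 (quasi-likelihood test of edgeR, Benjamini-Hochberg adjustment over all 14765 genes), and an absolute log2 fold change above 0.5. Levels are in CPM after scaling of library sizes, and changes are on this scale unless another is named. As background, 25.1% of all genes tested were called lower and 25.7% higher in SHAM mice, and 24.4% were called lower and 24.2% higher in Laminectomy mice, and 0% were called between Laminectomy and SHAM mice. The median log2 fold change over the 10 genes was -1.79 in SHAM and -1.62 in Laminectomy mice, beside medians near 0 over all genes.

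**Figure D1:**
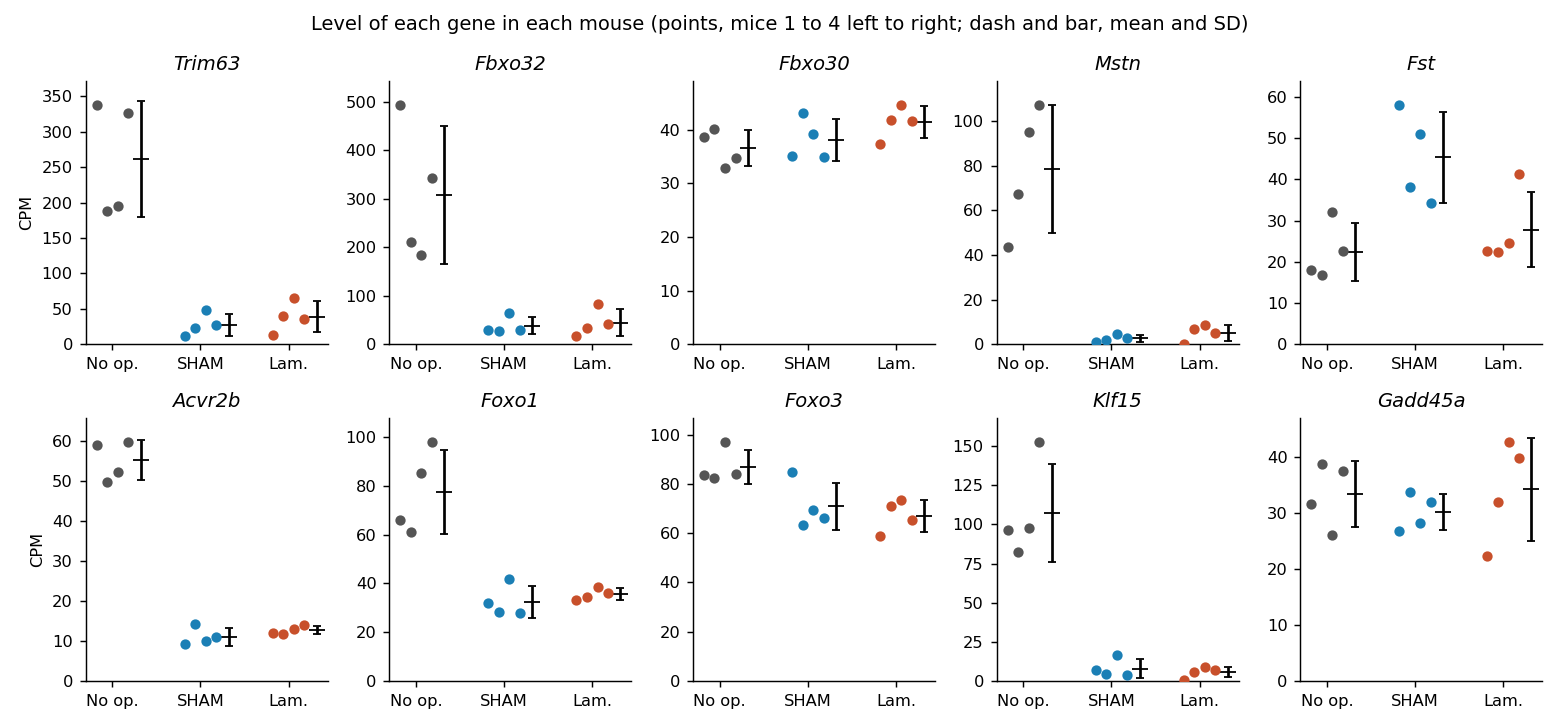
CPM (y axis, linear, starting at 0) of each of the 10 genes in the 4 mice of each group (No op., No operation; Lam., Laminectomy), with points for mice 1 to 4 from left to right and a dash and bar for the mean and SD. *Trim63*, *Fbxo32*, *Mstn* and *Klf15* were low in all 8 operated mice, while *Fbxo30* and *Gadd45a* overlapped in all 3 groups.

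Muscle fibre RNA moved with these genes and is given first. A list of 20 fibre genes, such as *Ckm*, *Acta1* and *Mylpf*, took 11.6% to 15.7% of the counts without an operation, 0.303% to 1.41% after SHAM surgery and 0.506% to 2.08% after Laminectomy. All 20 were called lower in both operated groups, with median log2 fold changes of -3.94 and -3.16. Summed macrophage markers were 697.5 to 1860 CPM in No operation mice, 4754 to 8793 CPM in SHAM mice and 3542 to 6039 CPM in Laminectomy mice, and all 8 were called higher in both operated groups. Summed fibroblast markers were at 6330 to 21530 CPM in No operation mice, 44670 to 60490 CPM in SHAM mice and 41080 to 46920 CPM in Laminectomy mice, with 6 of 9 called higher in each operated group. *Col1a1* and *Col3a1* made up most of these sums (means of 19530 and 25850 CPM in SHAM mice), *Dcn* was called lower in both operated groups (-0.94 and -1.73), and *Fap* and *Dpt* had log2 fold changes of -0.02 and -0.03 in SHAM mice. Summed genes of the early response to handling were at 449.3 to 683.9 CPM in No operation mice, 919 to 1565 CPM in SHAM mice and 575.5 to 1662 CPM in Laminectomy mice, with *Fos* and *Junb* called higher and *Hspa1a* and *Hspa1b* lower in both operated groups. In bulk tissue, fewer muscle fibres and less RNA per fibre cannot be told apart. SHAM mouse 1 and Laminectomy mouse 1 stood lowest in fibre RNA. Summed markers of satellite cells and new fibres were at 5.84 CPM in SHAM mouse 1 and between 1187 and 2070 CPM in the other 3 SHAM mice. The part of these shifts in the results below was not tested, and values without both mice are given beside the calls they touch.

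**Figure D2:**
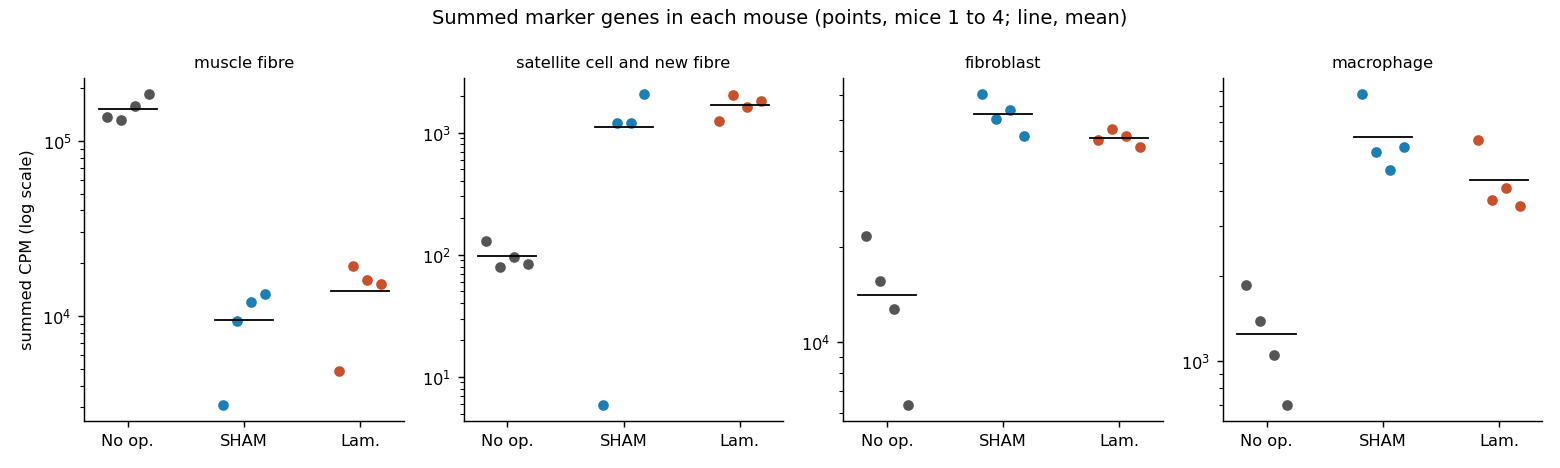
Summed CPM (log scale) of the markers of muscle fibres, satellite cells and new fibres, fibroblasts and macrophages in each of the 4 mice per group, with a line for the mean. Fibre markers fell from 131600 to 185100 CPM in No operation mice to at most 19260 CPM in any operated mouse, while macrophage markers were higher in all operated mice than in any No operation mouse.

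Among the ubiquitin ligases, both atrophy ligases fell strongly. *Trim63* (gene 433766, chr4:134315120-134329629, GRCm38, plus strand) had CPM values of 338, 188, 195 and 326 in the No operation group, 11.46, 23.5, 48.3 and 27.1 after SHAM surgery and 12.7, 40.2, 65.8 and 35.9 after Laminectomy. The lowest No operation mouse lay well above the highest operated mouse, so the groups did not overlap. The level was 9.49-fold lower in SHAM mice (-3.25 on the log2 scale, standard error 0.52, adjusted p = 0.000259, edgeR) and 6.77-fold lower in Laminectomy mice (-2.76, 0.51, adjusted p = 0.00075).

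*Fbxo32* (gene 67731, chr15:58175879-58214892, minus strand) had CPM values of 493, 210, 184 and 342 in the No operation group, 30.3, 26.5, 64.1 and 30.2 after SHAM surgery and 17.5, 33.8, 83.3 and 41.2 after Laminectomy. All 8 operated mice were below every No operation mouse, and mouse 3 was the highest of each operated group. *Fbxo32* changed by -3.02 on the log2 scale after SHAM surgery (standard error 0.50, adjusted p = 0.000337, edgeR) and -2.81 in Laminectomy mice (0.50, adjusted p = 0.000593). The antisense gene Gm15943 overlaps 186 bases of its exons, and since the counting's use of strand is not stated beyond default settings the reads of the pair cannot be told apart.

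*Fbxo30* (gene 71865, chr10:11281330-11305750, plus strand), which encodes the ligase MUSA1, had CPM values of 38.7, 40.2, 32.9 and 34.7 in the No operation group, 35.1, 43.2, 39.2 and 35.0 after SHAM surgery and 37.4, 41.9, 44.7 and 41.7 after Laminectomy. All 3 groups overlapped. It changed by 0.06 on the log2 scale in SHAM mice (95% interval -0.16 to 0.27) and 0.18 in Laminectomy mice (-0.04 to 0.39), with adjusted p = 0.629 and 0.142 by edgeR.

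In the myostatin axis, the ligand and the receptor fell and the antagonist rose in SHAM mice. *Mstn* (gene 17700, chr1:53061640-53068079, plus strand) had CPM values of 43.5, 67.5, 95.4 and 107 in the No operation group, 1.01, 2.03, 4.77 and 2.72 after SHAM surgery and 0.318, 6.84, 8.50 and 4.90 after Laminectomy. Mouse 1 was the lowest of each operated group, and the value of Laminectomy mouse 1 rests on 6 counts (exact Poisson 95% interval 2.20 to 13.1, which covers counting error only). Mean levels were 29.8-fold lower in SHAM mice (-4.89 on the log2 scale, standard error 0.73, adjusted p = 0.000155, edgeR) and 15.3-fold lower in Laminectomy mice (-3.93, 0.69, adjusted p = 0.000531), the largest decrease of the 10 genes in SHAM mice.

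*Fst* (gene 14313, chr13:114452262-114458989, minus strand), which encodes follistatin, had CPM values of 17.99, 16.7, 32.2 and 22.6 in the No operation group, 58.1, 38.1, 51.0 and 34.4 after SHAM surgery and 22.7, 22.4, 24.6 and 41.3 after Laminectomy. Every SHAM mouse was above every No operation mouse, while Laminectomy mice overlapped both other groups. It was 2.03-fold higher in SHAM mice (1.02 on the log2 scale, standard error 0.27, adjusted p = 0.00584, edgeR), but the change in Laminectomy mice was 0.31 (0.26, adjusted p = 0.330). Between Laminectomy and SHAM mice the log2 difference was -0.71 (95% interval -1.28 to -0.14, unadjusted p = 0.0198, adjusted p = 0.221), so a difference between both operations was not shown for it over all genes tested. An antisense gene, Gm47040, overlaps 115 bases of *Fst* exons.

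*Acvr2b* (gene 11481, chr9:119401583-119442148, plus strand), which encodes the activin receptor type IIB that myostatin binds, had CPM values of 59.1, 49.9, 52.3 and 59.9 in the No operation group, 9.16, 14.3, 9.90 and 10.9 after SHAM surgery and 12.1, 11.8, 13.0 and 13.97 after Laminectomy. The spread within each group was small and the operated mice lay far below. *Acvr2b* changed by -2.32 on the log2 scale after SHAM surgery (standard error 0.14, adjusted p = 2.11e-06, edgeR) and -2.12 in Laminectomy mice (0.14, adjusted p = 3.32e-06).

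The balance of ligand to antagonist was followed within each mouse. The log2 ratio of *Mstn* to *Fst* was 1.27, 2.01, 1.56 and 2.24 in No operation mice, -5.69, -4.15, -3.39 and -3.60 in SHAM mice and -5.72, -1.70, -1.52 and -3.05 in Laminectomy mice. All 8 operated mice lay below every No operation mouse. The ratio is not corrected for gene length, so only its differences between mice are compared. The ratio differed by -5.98 between SHAM and No operation mice and by -4.77 between Laminectomy and No operation mice (-3.86 without Laminectomy mouse 1), each with p = 0.0286 by a two-sided exact permutation test, the smallest that 4 against 4 mice allow, and 0.0858 after Benjamini-Hochberg adjustment over 6 ratio tests. Between Laminectomy and SHAM mice it differed by 1.21 (exact p = 0.286, adjusted 0.548), and by 2.12 without Laminectomy mouse 1 (exact p = 0.0286, not adjusted). The ratio of *Trim63* to *Fbxo32* overlapped between the groups. Its mean log2 value was -0.17 ± 0.27 in No operation, -0.53 ± 0.58 in SHAM and -0.19 ± 0.31 in Laminectomy mice (SD, n = 4), with exact p of 0.371, 0.943 and 0.457 in the 3 comparisons. 

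Among the regulators, *Klf15* and *Foxo1* fell, and *Foxo3* and *Gadd45a* were not called. *Klf15* (gene 66277, chr6:90461043-90491803, plus strand), a Krüppel-like factor induced by glucocorticoids in muscle, had CPM values of 96.6, 82.3, 97.5 and 153 in the No operation group, 7.03, 4.12, 16.7 and 3.63 after SHAM surgery and 0.90, 5.81, 8.81 and 6.83 after Laminectomy. There was no overlap with either operated group, and the lowest value, in Laminectomy mouse 1, rests on 17 counts. It was 13.6-fold lower in SHAM mice (-3.77 on the log2 scale, standard error 0.62, adjusted p = 0.000305, edgeR) and 19.2-fold lower in Laminectomy mice (-4.26, 0.63, adjusted p = 0.000186). Without SHAM mouse 3, the highest of its group, the change in SHAM mice was -4.44. Summed markers of fat cells, which also express *Klf15*, were at 513, 259, 1322 and 340 CPM in SHAM mice 1 to 4, highest in the same mouse, beside 1172 to 2233 CPM in No operation and 78.5 to 412 CPM in Laminectomy mice. Of these 6 markers, 4 were called lower in SHAM and 6 in Laminectomy mice, and their part in the *Klf15* result was not tested.

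*Foxo1* (gene 56458, chr3:52268337-52350109, plus strand), a FoxO transcription factor, had CPM values of 66.1, 60.9, 85.1 and 98.1 in the No operation group, 31.98, 28.2, 41.9 and 27.8 after SHAM surgery and 33.1, 34.3, 38.6 and 36.2 after Laminectomy. All operated mice lay below the lowest No operation mouse. Levels were 2.39-fold and 2.18-fold lower in SHAM and Laminectomy mice (log2 fold changes -1.26 and -1.12, adjusted p = 7.76e-05 and 0.000193, edgeR). The antisense gene Gm20402 overlaps 674 bases of its exons.

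*Foxo3* (gene 56484, chr10:42181845-42276695, minus strand), a related FoxO factor, had CPM values of 83.7, 82.6, 97.2 and 84.0 in the No operation group, 84.9, 63.5, 69.2 and 66.1 after SHAM surgery and 58.7, 70.9, 73.4 and 65.4 after Laminectomy. SHAM mouse 1 was level with No operation mice, and all Laminectomy mice were lower. The log2 fold changes were -0.29 (adjusted p = 0.0355, edgeR) and -0.37 (adjusted p = 0.0119), below the 0.5 that a call requires.

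*Gadd45a* (gene 13197, chr6:67035096-67037407, minus strand), a stress-induced gene that can drive atrophy when raised in muscle, had CPM values of 31.6, 38.9, 26.0 and 37.5 in the No operation group, 26.9, 33.8, 28.2 and 31.9 after SHAM surgery and 22.3, 32.1, 42.8 and 39.9 after Laminectomy. The groups overlapped. It changed by -0.15 on the log2 scale in SHAM mice (95% interval -0.57 to 0.27) and 0.03 in Laminectomy mice (-0.39 to 0.46). E230016M11Rik, on the opposite strand, overlaps 337 bases of its exons.

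**Figure D3:**
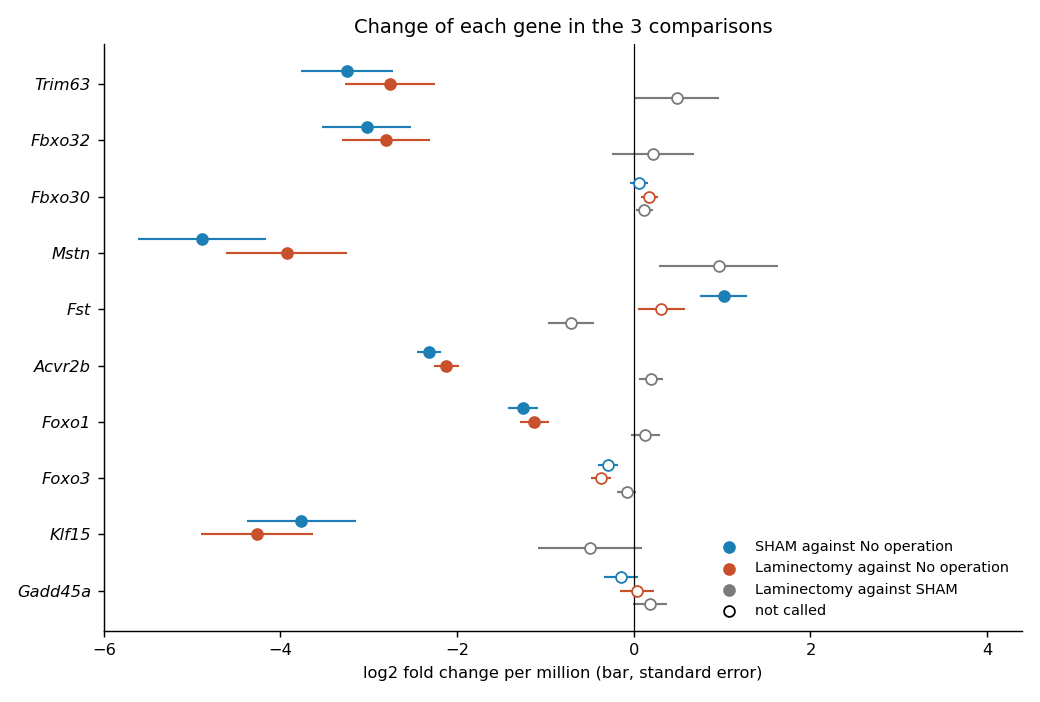
Log2 fold change of CPM (x axis) with its standard error for each gene in the 3 comparisons, with filled points for called genes. *Mstn*, *Klf15*, *Trim63* and *Fbxo32* lie furthest left in both comparisons with No operation mice, and no gene is called between Laminectomy and SHAM mice.

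Without SHAM mouse 1 and Laminectomy mouse 1, an alternative chosen after seeing the data, the same counts of 7 and 6 genes were called, and log2 fold changes against No operation mice were -2.95 and -2.45 for *Trim63*, -4.59 and -3.52 for *Mstn* and 0.92 for *Fst* in SHAM mice. Between Laminectomy and SHAM mice none of the 10 genes was called with edgeR, 1 (*Fst*) had an unadjusted p below 0.05, and DESeq2 also called none. The intervals there were wide for the 4 genes that fell most, at -0.57 to 1.54 for *Trim63*, -0.81 to 1.24 for *Fbxo32*, -0.52 to 2.44 for *Mstn* and -1.78 to 0.79 for *Klf15*. They were narrow for *Foxo3* (-0.32 to 0.16), *Fbxo30* (-0.10 to 0.33) and *Acvr2b* (-0.10 to 0.49), where differences beyond these bounds were outside the 95% interval.

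Every SHAM mouse was lower than every No operation mouse for 6 of the 10 genes, beside 27.8% of all genes, and higher for 1, beside 26.7%. In Laminectomy mice 7 genes were lower without overlap, beside 29% of all genes, and 0 were higher, beside 27%. The gene that was lower in Laminectomy mice without overlap and without a call was *Foxo3*.

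Because muscle fibre RNA fell, counts were also set against the fibre counts, as counts per 10000 counts of the 20 fibre genes. On this scale a gene that keeps a constant ratio to the 20 fibre genes stays level. All genes of a mouse share its fibre sum, and the test drew its spread mostly from all genes together. Its p-values, calls and intervals therefore do not rest on the spread between mice for each gene, and may be too firm. Of all genes tested, 96.4% were called higher in SHAM and 95.2% in Laminectomy mice on this scale, with medians of 4.46 and 3.85 on the log2 scale, and 0.102% and 0.21% were called lower. Of the 10 members, 6 were called higher in each operated group and none lower. The 4 that were not called were *Trim63*, *Fbxo32*, *Mstn* and *Klf15*.

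*Trim63* was at 17.3 ± 5.47 per 10000 fibre counts in No operation, 30.7 ± 9.52 in SHAM and 27.9 ± 8.92 in Laminectomy mice (SD, n = 4), log2 fold changes of 0.83 and 0.69 that missed the call (adjusted p = 0.199 and 0.285, edgeR). *Fbxo32* was at 20.6 ± 10.8, 50.7 ± 34.4 and 33.1 ± 14.5 per 10000 fibre counts. Its log2 fold change in SHAM mice was 1.30 with adjusted p = 0.0507 (edgeR), and it missed the call under most alternatives. It passed under 7 of them, among them the replicate block (1.15, adjusted p = 0.0061) and without No operation mouse 1 (1.72, adjusted p = 0.0282). It missed without SHAM mouse 1 and Laminectomy mouse 1 (0.76, adjusted p = 0.110).

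*Mstn* was at 5.04 ± 1.29 per 10000 fibre counts in No operation, 2.87 ± 0.92 in SHAM and 3.17 ± 1.90 in Laminectomy mice, the only member whose log2 fold change was below 0 in both operated groups (-0.82 and -0.65, adjusted p = 0.223 and 0.330, edgeR). *Klf15* was at 6.94 ± 0.97, 10.96 ± 9.30 and 3.71 ± 1.59, with log2 fold changes of 0.65 and -0.90 (adjusted p = 0.322 and 0.172). The SHAM value rests on mouse 1, and without SHAM mouse 1 and Laminectomy mouse 1 the changes were 0.0175 and -0.69 and were not called either. All 4 Laminectomy mice were below the No operation mice for *Klf15*. Without SHAM mouse 1 and Laminectomy mouse 1, *Trim63* was called higher in both operated groups (0.73 and 0.72, adjusted p = 0.0406 and 0.0417) and *Mstn* was called lower in SHAM mice (-0.88, adjusted p = 0.0207).

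The other 6 genes rose against fibre RNA. *Fst* rose most, by a log2 fold change of 5.66 in SHAM and 4.11 in Laminectomy mice, and *Acvr2b* rose least, by 2.06 and 1.72, below the median of all genes. *Foxo1* rose by 3.23 and 2.73. *Fbxo30*, *Foxo3* and *Gadd45a* were at 4.47, 4.28 and 4.25 in SHAM mice, near the median of all genes. SHAM mouse 1 was the highest of its group for each of these 6 genes, and without it and Laminectomy mouse 1 the changes were 4.63 and 3.62 for *Fst*, 1.53 and 1.08 for *Acvr2b*, 2.51 and 2.12 for *Foxo1*, 3.83 and 3.38 for *Fbxo30*, 3.34 and 2.85 for *Foxo3* and 3.64 and 3.37 for *Gadd45a*, all still called. Between Laminectomy and SHAM mice none of the 10 was called per fibre count, beside 2.31% of all genes, with *Fst* (-1.56) and *Klf15* (-1.54) at an unadjusted p of 0.0194 and 0.0198.

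**Figure D4:**
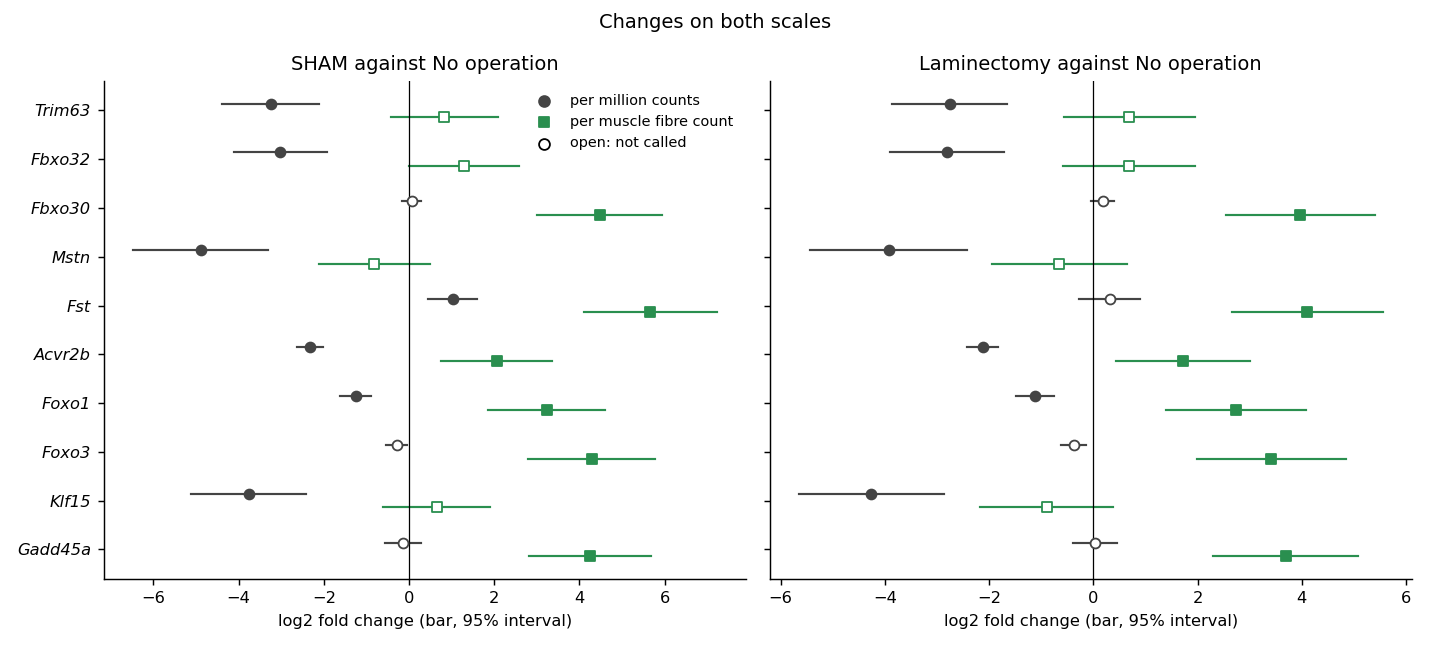
Log2 fold change with its 95% interval (x axis) of each gene in CPM (circles) and per muscle fibre count (squares), in SHAM and Laminectomy mice against No operation mice, with open symbols for genes not called. *Trim63*, *Fbxo32*, *Mstn* and *Klf15* are called lower in CPM and not called per fibre count, while *Fbxo30* and *Gadd45a* are not called in CPM and are higher per fibre count.

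Levels of different genes can be compared only per length, so CPM was divided by exon length in kilobases. In No operation mice the order was *Trim63* (92.1 ± 28.6), *Fbxo32* (44.1 ± 20.3), *Klf15* (38.5 ± 11.2), *Mstn* (29.0 ± 10.6), *Gadd45a* (19.0 ± 3.34), *Acvr2b* (14.1 ± 1.26), *Foxo3* (11.48 ± 0.91), *Foxo1* (8.95 ± 1.99), *Fbxo30* (7.05 ± 0.654) and *Fst* (4.88 ± 1.53), in CPM per kilobase (SD, n = 4). *Fbxo32*, *Klf15*, *Mstn* and *Gadd45a* followed each other by gaps smaller than the larger SD of each pair, as did *Foxo1* and *Fbxo30*. The order differed in the operated tissue. In SHAM mice *Gadd45a* led (17.1 ± 1.81), ahead of *Fst* (9.89 ± 2.41), *Trim63* (9.70 ± 5.398) and *Foxo3* (9.37 ± 1.27), and *Mstn* was last (0.973 ± 0.586). *Fst*, *Trim63* and *Foxo3* followed each other there by gaps smaller than the larger SD of each pair. In Laminectomy mice *Gadd45a* (19.4 ± 5.21) came first and *Trim63* (13.6 ± 7.67) next, and they could not be separated. Nor could *Trim63* be separated from *Foxo3* (8.86 ± 0.864), which followed it. *Mstn* (1.90 ± 1.31) and *Klf15* (2.00 ± 1.205) were last.

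The genes whose profiles were most like those of 4 members over the 12 mice were found by the smallest root mean square difference of mean-centred log2 CPM. For *Trim63* they were *Dusp13* (0.23) and *Mlip* (0.286), and for *Fbxo32* they were *Rph3al* (0.353) and *Lpin1* (0.358). For *Mstn* they were *Mybpc2* (0.323), a fast-fibre myosin binding protein, and *Phkg1* (0.374), a muscle subunit of phosphorylase kinase. *Gadd45a* lay closest to *Zfp606* (0.17) and *Wbp1* (0.171). As an example of scale, *Mybpc2* averaged 3508 CPM in No operation, 116 CPM in SHAM and 155 CPM in Laminectomy mice.

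Around the members, 72 further genes of the pathway were grouped in 8 lists, and all 72 were tested. In SHAM mice 15 were called higher, 36 lower and 21 not called, and in Laminectomy mice 11, 38 and 23. Their median log2 fold change was -0.52 in SHAM and -0.76 in Laminectomy mice. These counts and those of each list below are on the CPM scale. Beside them, 25.7% of all genes were called higher and 25.1% lower in SHAM mice, and 24.2% and 24.4% in Laminectomy mice. Per fibre count no gene of the 8 lists was called lower in either operated group, and 10 of 14 other ligases, 10 of 10 genes of insulin and Akt signalling and 7 of 7 of the glucocorticoid list were called higher in each, beside the 96.4% and 95.2% of all genes given above. Between Laminectomy and SHAM mice none was called in CPM. Per fibre count 1 gene, of the activin receptors and Smads, was called lower there, beside 2.31% of all genes called.

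Of 14 other ubiquitin ligases of muscle, 9 were lower in each operated group and none higher. *Fbxo40*, an F-box protein of muscle that targets the insulin receptor substrate, had CPM values of 542, 330, 412 and 429 in the No operation group and between 2.33 and 29.0 CPM in the operated mice, a log2 fold change of -5.06 in SHAM and -4.31 in Laminectomy mice (adjusted p = 5.74e-05 and 0.000159, edgeR). Of the 10 genes of insulin and Akt signalling upstream of FoxO, 7 were lower and 1, *Akt1*, was higher in each operated group. *Akt1* encodes the ubiquitous Akt kinase and rose by 0.90 and 0.82 on the log2 scale, whereas *Irs1*, an adaptor of the insulin receptor, had log2 fold changes of -2.25 and -1.53. *Foxo4*, another FoxO factor, had the largest decrease of this list in Laminectomy mice, with log2 fold changes of -1.82 in SHAM and -1.75 in Laminectomy mice (adjusted p = 2.11e-06 and 3.32e-06, edgeR).

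Of 9 activin and myostatin ligands, activators and antagonists, 4 were higher and 2 lower in SHAM mice, and 3 were higher and 2 lower in Laminectomy mice. *Bmp1*, a protease that can release myostatin from its propeptide and also matures procollagen, had CPM values of 210, 155, 158 and 149 in the No operation group, 803, 755, 576 and 538 after SHAM surgery and 555, 447, 401 and 515 after Laminectomy. Every operated mouse was higher (log2 fold changes 1.99 and 1.51, adjusted p = 7.10e-06 and 4.09e-05, edgeR). *Tll2*, a related protease, was barely detected, at 0.63 to 1.96 CPM in No operation mice and at 0 in 3 of 4 SHAM mice. Of the 8 activin receptors and Smads, 4 were lower in each operated group. *Acvr1c*, a type I receptor that is also found in fat, had CPM values of 15.4, 31.4, 18.1 and 30 in the No operation group, 4.44, 0.802, 12.3 and 1.55 after SHAM surgery and 0.159, 1.23, 1.87 and 0.991 after Laminectomy (log2 fold changes -2.31 and -4.47, adjusted p = 0.0174 and 0.00083). Without SHAM mouse 3 its change in SHAM mice was -3.39. The summed fat cell markers given beside *Klf15* moved with it as well, and their part in it was not tested.

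Of 7 genes of the glucocorticoid receptor and its targets, 5 were lower in SHAM and 6 in Laminectomy mice, and none was higher. *Tsc22d3*, which encodes the glucocorticoid-induced leucine zipper, had CPM values of 461, 461, 773 and 1110 in the No operation group and between 62.7 and 213 CPM in operated mice (log2 fold changes -2.21 and -2.17, adjusted p = 0.000576 and 0.000735, edgeR). Of 10 FoxO-linked autophagy and metabolic targets, 7 were lower and 2 higher in each operated group. *Pdk4*, which restrains glucose oxidation, had the largest decrease (-3.73 and -3.11, or -2.87 and -2.24 without No operation mouse 4). *Ctsl*, a lysosomal protease that macrophages also make, and *Cdkn1a*, an inhibitor of the cell cycle, were the 2 that rose, by 2.11 and 1.36 for *Ctsl* and 1.27 and 1.37 for *Cdkn1a*. Macrophage markers were higher beside them in all operated mice.

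Of the 10 genes of the denervation and stress response list, 5 were higher in each operated group, 2 were lower in SHAM and 3 were lower in Laminectomy mice. *Chrng*, the fetal subunit of the acetylcholine receptor, had CPM values of 0.345, 0, 0.333 and 0.561 in the No operation group, 0, 25.4, 21.2 and 27.8 after SHAM surgery and 20.3, 30.2, 28.1 and 27.99 after Laminectomy. SHAM mouse 1, which had almost no new-fibre markers, was the only operated mouse without it. The summed satellite cell and new-fibre markers moved with this list, at 79.2 to 129.8 CPM in No operation mice, 5.84 to 2070 CPM in SHAM mice and 1233 to 2047 CPM in Laminectomy mice, with 4 of 8 called higher in each operated group, and their part in it was not tested. *Hdac4*, which links denervation to the atrophy ligases, was lower in both (-0.85 and -1.05). *Gadd45g*, a stress-induced relative of *Gadd45a*, was called lower in Laminectomy mice (-1.08, adjusted p = 0.0111, edgeR), though not with library totals and no scaling, and had a log2 fold change of -0.41 in SHAM mice (adjusted p = 0.261). Of 4 genes of TWEAK and NF-kB, 3 were called higher in SHAM mice, with *Nfkb1* at 0.69 (adjusted p = 0.00133, edgeR), and none in Laminectomy mice, where *Nfkb1* lay just under the required fold (0.4995, adjusted p = 0.00975).

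**Figure D5:**
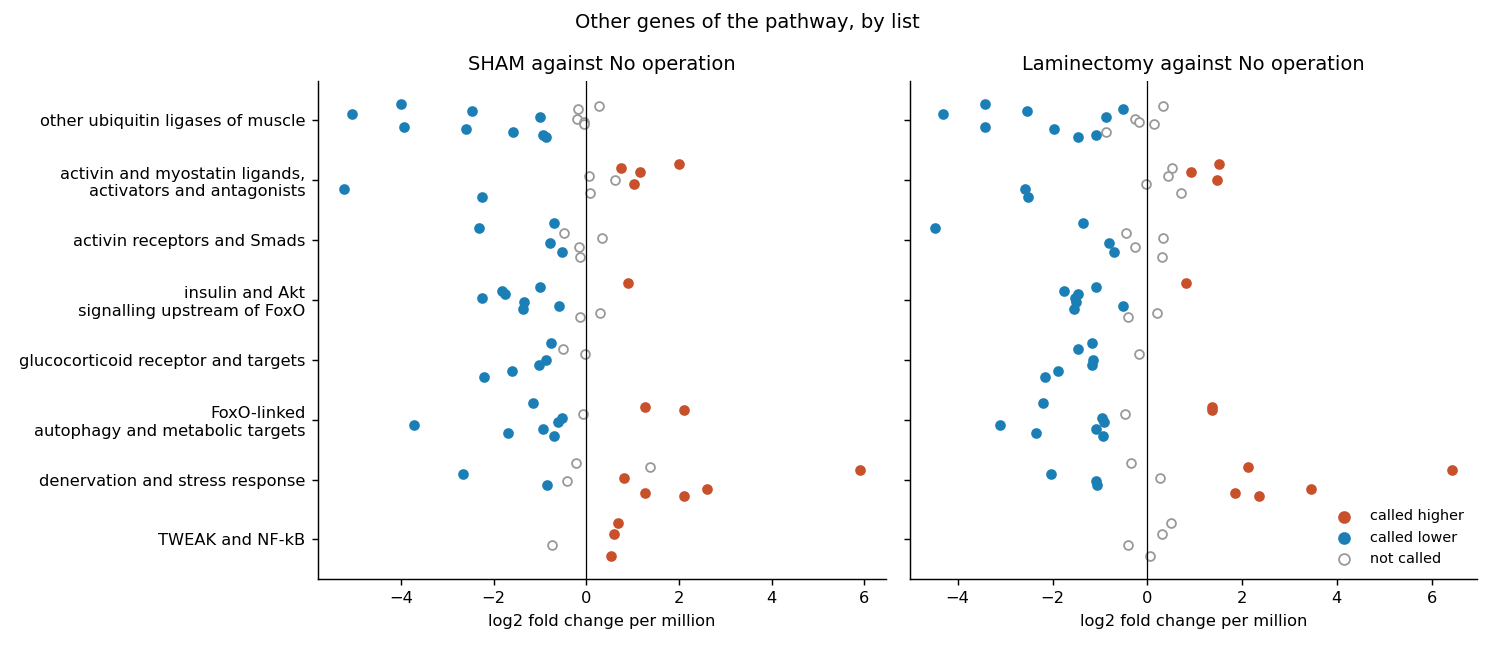
Log2 fold change of CPM (x axis) of the 72 further pathway genes, 1 point each, in 8 lists, for SHAM and Laminectomy mice against No operation mice (called higher, red; called lower, blue; not called, open). Ligases, insulin signalling and glucocorticoid targets lie mostly to the left, with 9 of 14, 7 of 10 and 5 of 7 called lower in SHAM mice, and 5 of 10 genes of the denervation list were called higher.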

How the data were processed

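Libraries of 4 mice per group were compared. The authors prepared stranded polyadenylated RNA libraries, aligned the reads with STAR 2.6.1b to GRCm38 and counted them with featureCounts 2.0.1, per the submitters' processing notes, which also name DESeq2 1.30.1. The deposited values are estimated counts without normalization, since 10.22% are not whole, and were rounded. Counting with featureCounts at its default settings gives whole numbers, so the fractional values go against the stated counting, and the step that made them is not given in the sources used here. Totals were 16802988 to 18077863 counts per mouse.

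Genes were filtered with filterByExpr, scaled by TMM (factors 0.849 to 1.134) and fitted over 12 mice with glmQLFit in edgeR 4.0.16 (R 4.3.3). P-values measure the spread between these mice, except per fibre count, for the reason given with that scale. For the fibre scale, the summed counts of 20 fibre genes served as library size. DESeq2 1.42.0, other scalings and filters and leaving out mice were alternatives, and the fit was tested on simulated data. Pathway genes named are, per list and comparison with No operation mice, those called with the largest increase and decrease and at least 1 CPM in the higher group; other genes were named after their values were seen. Members and lists were chosen with earlier results of these data known. Replicate numbers were not used as pairs in the main tests. The genes closest in profile to *Klf15* are not reported here.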

Additional observations from a re-analysis of the deposited data

Results flagged for a closer look

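In 36 sets of 4 mice (each gene in each group, with the ratios), 3 values stood apart from the other 3 mice by Dixon's test, where chance gives about 1 in 20. *Fbxo32* was at 64.13 CPM in SHAM mouse 3. *Fst* was at 41.29 CPM in Laminectomy mouse 4. *Foxo3* was at 97.18 CPM in No operation mouse 3.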

How the results depend on the processing

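The counts of members called against No operation mice stayed between 6 and 8 in SHAM and between 5 and 7 in Laminectomy mice over all alternatives, and 0 were called between Laminectomy and SHAM mice under every one. Requiring 10 counts in every mouse left out *Mstn*. With library totals and no scaling, the median of all genes shifted to 0.253 in SHAM and 0.328 in Laminectomy mice, the share of calls that were higher moved from 50.6% to 66% and from 49.8% to 69.9%, *Fst* was called in Laminectomy mice (0.65) and *Gadd45a* turned to 0.10 in SHAM mice. Between Laminectomy and SHAM mice, DESeq2 called 601 of all genes where edgeR called 0. A minimum log2 fold change of 1 left 4589 of 7502 and 4323 of 7183 genes called against No operation mice. Per fibre count, the 341 genes called between Laminectomy and SHAM mice became 619 with no filter, 109 with at least 10 counts in every mouse, 143 with only both groups fitted, 684 with the replicate block, 90 and 520 without SHAM mouse 1 or 4, 1917, 196 and 208 without Laminectomy mouse 1, 2 or 3, and 0 without mouse 1 of both groups.

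Deviations of mice with the same replicate number had correlations from -0.228 to 0.352, 7 of 12 above 0.1. Mice with different numbers were not compared in this way, so these values cannot decide whether the numbers pair the mice. The main tests took the mice as unpaired. With a replicate block, 7, 6 and 0 members were called. Per fibre count it added *Fbxo32* in SHAM against No operation mice and called 1 (*Fst*) between Laminectomy and SHAM mice. The *Mstn* to *Fst* ratio differed by the same -5.98 and -4.77 with an exact permutation p of 0.125, the smallest 4 pairs allow.

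Leaving out 1 mouse at a time turned the direction of values near 0. Ranges of log2 change were -0.0050 to 0.10 for *Fbxo30* in SHAM mice and -0.090 to 0.19 for *Gadd45a* in Laminectomy mice. Between Laminectomy and SHAM mice they were -0.29 to 0.60 for *Fbxo32*, -0.80 to 0.18 for *Klf15* and -0.13 to 0.025 for *Foxo3*, which was 0.063 without replicate 1 of both. Per fibre count they were -0.38 to 0.020 for *Trim63*, -1.09 to 0.14 for *Fbxo30*, -0.18 to 0.49 for *Mstn*, -0.97 to 0.18 for *Acvr2b*, -1.11 to 0.22 for *Foxo1*, -1.43 to 0.079 for *Foxo3* and -0.88 to 0.052 for *Gadd45a*, and 0 to 1 members were called. The *Mstn* to *Fst* ratio between Laminectomy and SHAM mice ranged from 0.72 to 2.12, reached without Laminectomy mouse 1 with exact p = 0.0286, and the *Trim63* to *Fbxo32* ratio in Laminectomy mice from -0.16 to 0.078. The cause was not tested.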
